A study of Mus musculus with 2 samples.

Results

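The genes described here are those of the major histocompatibility complex (MHC) and its antigen processing machinery, as expressed in cultures that carry the label of mouse intestinal stem cells. They were chosen by name, as every gene whose symbol begins with H2- together with B2m, Cd74, Ciita, Nlrc5, Tap1, Tap2, Tapbp, Tapbpl, Psmb8, Psmb9, Psmb10, Cd1d1 and Erap1. This gave 47 of the 18944 genes listed in both expression tables. By function 27 belong to the class I pathway, 11 to the class II pathway and 8 to peptide processing. The remaining one, H2-Ke6, carries an H2 symbol only because of its position and encodes a hydroxysteroid dehydrogenase.

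RNA sequencing was carried out on 1 library labelled Stat6 knockout (KO) and 1 labelled wild type (WT), so no difference below has a replicate check and none was tested. The KO cells carried Lgr5GFP-CreERT2 and had been infected with a lentivirus holding CRISPR/Cas and guides against Stat6, then screened for deficiency. The WT cells carried the same Lgr5GFP-CreERT2 allele, a reporter with tamoxifen-inducible Cre that is driven from the Lgr5 locus. Both labels give an age of 2 months. Both samples carry the same treatment text. The labels do not say whether the KO culture was 1 clone or whether the WT culture received a virus. The listed medium held EGF, R-spondin 1, N-acetylcysteine and the kinase inhibitor Y27632, with no interferon or interleukin among its additions.

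MHC class I molecules are found on nearly all nucleated cells. A heavy chain paired with beta-2-microglobulin (B2m) displays peptides that the proteasome cuts in the cytosol, that the TAP1/TAP2 transporter moves into the endoplasmic reticulum, and that tapasin helps to load. Class II molecules are alpha-beta pairs that travel with the invariant chain Cd74 to endosomes, where H2-DM exchanges the invariant chain remnant for a peptide. Class II is a feature of professional antigen-presenting cells, but the intestinal epithelium of mice also makes it, and interferon gamma raises both classes through the coactivators NLRC5 and CIITA. STAT6 is the transcription factor that IL-4 and IL-13 activate, and in B cells and macrophages IL-4 is known to raise class II.

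Levels are in FPKM, which corrects read numbers for transcript length and library size. The log2 ratio below is that of KO over WT after adding 1 FPKM to each, so differences of low genes are understated. Genes that reached 1 FPKM in either library were treated as measured, and a call required a 2-fold difference on that scale. The deposited tables hold no counts. The smallest steps of the values in short RNA genes gave an estimate of about 20000000 reads in KO and 19900000 in WT. The depths searched all lay below the mean of 59000000 reads per sample that the labels state, and multiples of a fitting depth also give whole reads. Read numbers below therefore hold only at the estimated depths. Among 12079 measured genes, 295 were called higher in KO (2.44%) and 263 lower (2.18%), or 4.62% in either direction. With the KO values rescaled by a trimmed mean of log ratios (TMM), which adds about 0.20 to log2 ratios of well expressed genes, 414 were higher and 187 lower. Over these genes the median was -0.18, and each class below is read against it. The Stat6 transcript itself was at 44.2 FPKM in KO and 41.3 FPKM in WT, so its level does not check the genotype label, since a small CRISPR lesion need not lower a transcript. Epithelial genes were abundant in both libraries (Epcam at 531 FPKM in KO and 577 FPKM in WT). The 7 epithelial markers summed to 6490 FPKM in KO and 8849 FPKM in WT, with log2 ratios from -0.89 (Krt18) to 0.57 (Vil1). The stem cell marker Lgr5 was at 1.88 FPKM in KO and 1.79 FPKM in WT. All 6 stem cell markers together summed to 62.9 FPKM in KO and 74.35 FPKM in WT. The 7 absorptive enterocyte markers summed to 10775 FPKM in KO and 3329 FPKM in WT.

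Antigen presentation genes were expressed strongly in both cultures, and their totals were close. All 47 genes together summed to 4066 FPKM in KO and 4145 FPKM in WT, which is 0.819% of all FPKM in KO and 0.822% in WT. Of the 47, 38 were measured. In KO 2 of these were called higher, against 2.44% of all genes, and 1 lower, against 2.18% of all genes. The 3 were all class I genes, H2-Bl and H2-T3 on the higher side and H2-Q6 on the lower. None of the 8 measured class II genes and none of the 8 processing genes passed 2-fold. The median log2 ratio was -0.20 for class I, -0.019 for class II and -0.036 for processing, which is -0.019, 0.16 and 0.14 from the median of all genes. At a lower threshold of 1.5-fold, 4 of the 21 measured class I genes were higher, where 5.7% of all genes were. On the lower side 1 class I gene (H2-Q6) and 1 class II gene (H2-DMb2) passed 1.5-fold, where 11.4% of all genes did. The H2-Ke6 transcript, outside these classes, was at 26.8 FPKM in KO and 21.4 FPKM in WT (0.31).

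**Figure D1:**
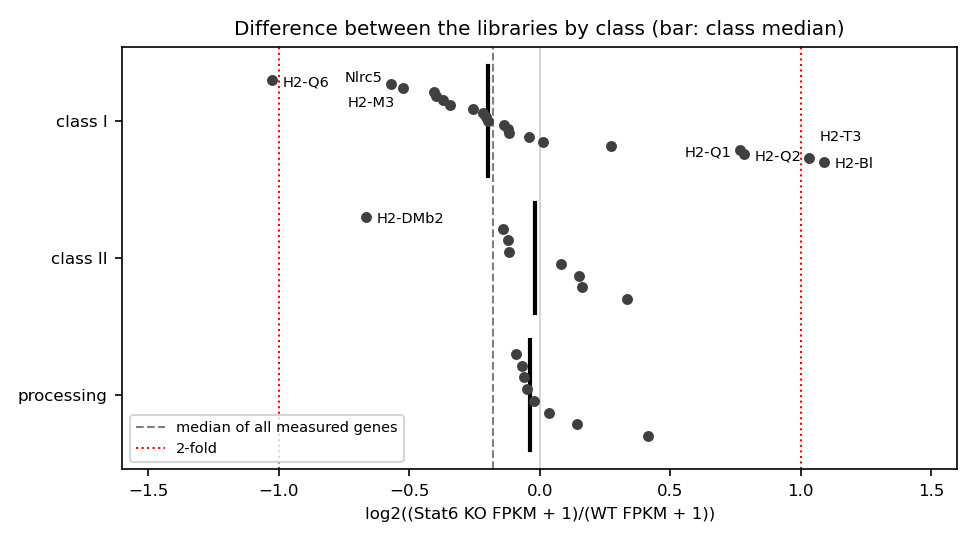
Log2 ratio of each measured member (x axis, Stat6 KO over WT with a pseudocount of 1 FPKM), by class, with the class median as a bar, the median of all measured genes dashed and 2-fold dotted. Class I spreads from -1.03 for H2-Q6 to 1.09 for H2-Bl, while processing genes stay between -0.092 and 0.42.

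The 9 members below 1 FPKM in both libraries were H2-T9, H2-L, H2-M2, H2-M9, H2-M10.2, Cd1d1, H2-Eb2, H2-Oa and H2-Ob. The highest value among them was 0.46 FPKM, for Cd1d1 in KO, a lipid-presenting class I-like molecule, against 0.22 FPKM in WT. H2-Oa and H2-Ob encode the chains of H2-O, an inhibitor of H2-DM best known from B cells. H2-T9 was at 0.36 FPKM in KO and listed at 0 in WT, while H2-L was listed at 0 in KO and was at 0.39 FPKM in WT. No fold change is drawn from any of these values.

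Many MHC promoters carry a conserved module of S, X and Y boxes, bound by RFX, CREB and NF-Y proteins, on which CIITA or NLRC5 assemble. RefSeq promoter windows of build GRCm38.p6, running from 250 bases before to 50 bases after the annotated start, were at hand for 30 of the 47 genes, 1 per gene. An X2 box core (TGANG) followed by a Y box core (ATTGG) starting 24 to 28 bases after it, on the same strand, was found in 12 of the 30 windows, against 1.42% of 27025 windows of all genes. That spacing was set after reading the H2-Aa and H2-K1 windows, and without these the pair stood in 10 of 28. Several of the remaining windows belong to close copies, such as H2-Q6 and H2-Q7, so the windows are not independent. By class the pair stood in 7 of 15 class I windows, 5 of 8 class II windows and 0 of 6 processing windows. The following stretches are shown because genes of both classes, at very different levels, hold the same 2 boxes at nearly the same distance. Capitals mark the Y box core and the X2 core of the first pair in each window. H2-D1, H2-Q7, H2-M3, H2-Eb1 and H2-DMb1 hold 2 pairs that share the Y box. Their other X2 core overlaps the marked one, lies closer to the Y box and is in lower case.

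B2m (chr2:122147599-122147642, plus strand): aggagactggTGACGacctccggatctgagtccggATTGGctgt
H2-K1 (chr17:34000355-34000398, minus strand): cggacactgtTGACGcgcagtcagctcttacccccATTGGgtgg
H2-D1 (chr17:35262980-35263026, plus strand): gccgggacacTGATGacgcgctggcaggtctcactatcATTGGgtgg
H2-Q4 (chr17:35379500-35379546, plus strand): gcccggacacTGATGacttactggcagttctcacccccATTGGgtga
H2-Q6 (chr17:35424734-35424779, plus strand): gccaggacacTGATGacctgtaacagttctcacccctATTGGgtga
H2-Q7 (chr17:35439078-35439123, plus strand): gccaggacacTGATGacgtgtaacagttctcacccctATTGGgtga
H2-M3 (chr17:37270175-37270221, plus strand): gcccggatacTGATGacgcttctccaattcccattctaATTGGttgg
H2-Aa (chr17:34287863-34287907, minus strand): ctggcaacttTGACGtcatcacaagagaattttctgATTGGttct
H2-Eb1 (chr17:34305771-34305816, plus strand): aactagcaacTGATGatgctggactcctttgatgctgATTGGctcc
H2-DMb1 (chr17:34153092-34153138, plus strand): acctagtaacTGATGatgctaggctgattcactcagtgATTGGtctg

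The windows of H2-Eb2, at 0.15 FPKM in KO and 0.11 FPKM in WT, and of H2-DMb2 hold the pair as well. Holding these letters did not go with a high level in every case.

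Other motifs were searched on both strands in the same windows. The Y box core alone, which every pair contains, was in 24 of 30 windows against 37.9% of all windows. A kB-type site, GGGA and CCC with 3 bases between them, was in 7 windows, H2-K1, H2-D1, H2-Q4, H2-Q6, H2-Q7, H2-Aa and H2-Oa, against 5.4% of all. An interferon response element pair, GAAA repeated after 2 bases, was in B2m, H2-T22, H2-T23 and Erap1, against 3.49% of all. The spacing that STAT6 prefers, TTC and GAA with 4 bases between, was in 1 window, that of Psmb10, against 6.99% of all. These matches describe letters only, and binding was not measured.

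**Figure D2:**
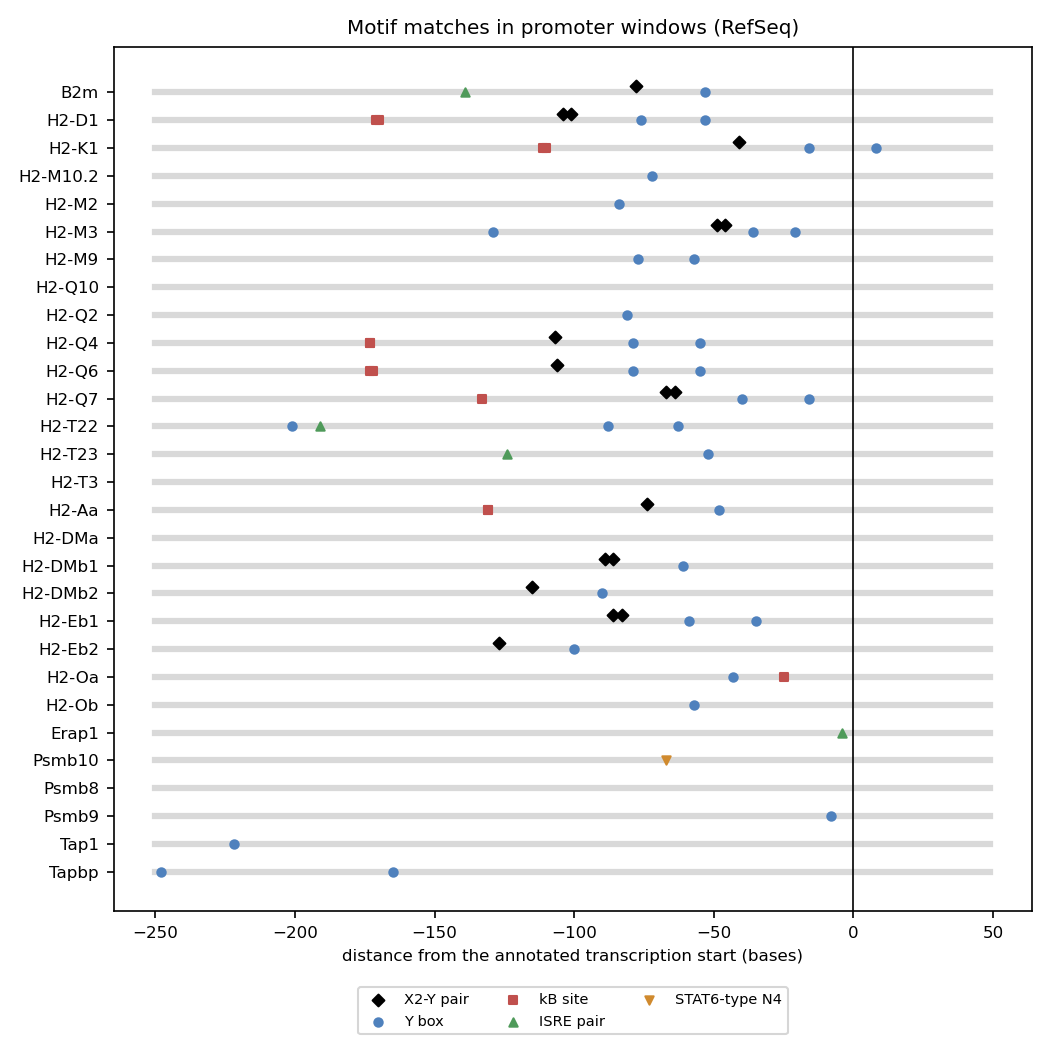
Motif matches by distance from the annotated start (x axis, bases) in the windows of 29 genes, leaving out H2-Ke6, grouped as class I, class II and processing from top to bottom. X2-Y pairs (diamonds, at the start of whichever box lies upstream) stand before the start in 12 genes, and the rows of H2-T3, H2-Q10, H2-DMa and Psmb8 hold none of the motifs plotted.

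Class I heavy chains came first in level. H2-K1 (Entrez gene 14972), a classical heavy chain, was at 722 FPKM in KO and 742 FPKM in WT (log2 ratio -0.040). H2-D1 (Entrez gene 14964), the other classical chain, was at 642 FPKM in KO and 739 FPKM in WT (-0.20). B2m, their common partner, was at 584 FPKM in KO and 642 FPKM in WT (-0.14). These 3 were among the most abundant transcripts of either library, at ranks 96, 115 and 127 of 18944 in KO and ranks 107, 109 and 125 in WT. Summed over all 24 heavy chain genes, the level was 2099.8 FPKM in KO and 2123 FPKM in WT. Within this sum, genes differed in opposite directions.

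The 4 highest log2 ratios of measured class I genes lay outside the classical pair, in H2-Bl, H2-T3, H2-Q2 and H2-Q1. H2-T3 (Entrez gene 15043) encodes the thymus leukaemia antigen, a non-classical molecule known from intestinal epithelium that binds CD8alpha on intraepithelial T cells. It was at 39.8 FPKM in KO and 18.9 FPKM in WT (log2 ratio 1.03, 2.10-fold), or about 1811 reads in KO and 858 in WT at the estimated depths. H2-Bl (Entrez gene 14963), which RefSeq lists as a transcribed pseudogene, was at 7.92 FPKM in KO and 3.19 FPKM in WT (log2 ratio 1.09), or about 175 reads in KO and 70.0 in WT. With the TMM factor the log2 ratios were 1.23 for H2-T3 and 1.27 for H2-Bl. With a pseudocount of 5 FPKM, which shrinks low genes, both were below 2-fold, at 0.90 and 0.66.

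H2-Q2 (Entrez gene 15013) was at 185 FPKM in KO and 107 FPKM in WT, a log2 ratio of 0.78 or 1.73-fold. H2-Q1 (Entrez gene 15006) was at 94.3 FPKM in KO and 55.0 FPKM in WT, a log2 ratio of 0.77 or 1.72-fold. Neither passed 2-fold under any scaling tried, the nearest being 0.99 and 0.97 with the TMM factor. H2-Q1 and H2-Q2 lie next to each other among the members on chromosome 17. Together they made up 279.7 FPKM in KO and 162 FPKM in WT.

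The other 7 H2-Q genes had log2 ratios below 0 as deposited, where the median of all genes was -0.18. With the TMM factor 6 of them were still below 0, the exception being H2-Q8 at 0.081. H2-Q4 and H2-Q5 were then near 0, at -0.057 and -0.021. They summed to 219 FPKM in KO and 275 FPKM in WT. H2-Q6 was at 6.46 FPKM in KO and 14.2 FPKM in WT (log2 ratio -1.03), and this call was lost with the TMM factor (-0.85). H2-Q7 and H2-Q9, genes of the Qa-2 antigen, were at 46.6 and 25.8 FPKM in KO and at 61.8 and 33.6 FPKM in WT. H2-Q8 was at 32.2 FPKM in KO and 35.0 FPKM in WT. H2-Q6 to H2-Q9 are close copies, and how their reads were divided is not described in the labels. Their sum was 111 FPKM in KO and 144.5 FPKM in WT, 0.768 of the WT level. H2-Q4 was at 54.8 FPKM in KO and 65.6 FPKM in WT (-0.26), and H2-Q5, a transcribed pseudogene in RefSeq, at 32.9 FPKM in KO and 38.5 FPKM in WT (-0.22). H2-Q10, which encodes a secreted class I protein known from liver, was at 20.6 FPKM in KO and 26.4 FPKM in WT.

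**Figure D3:**
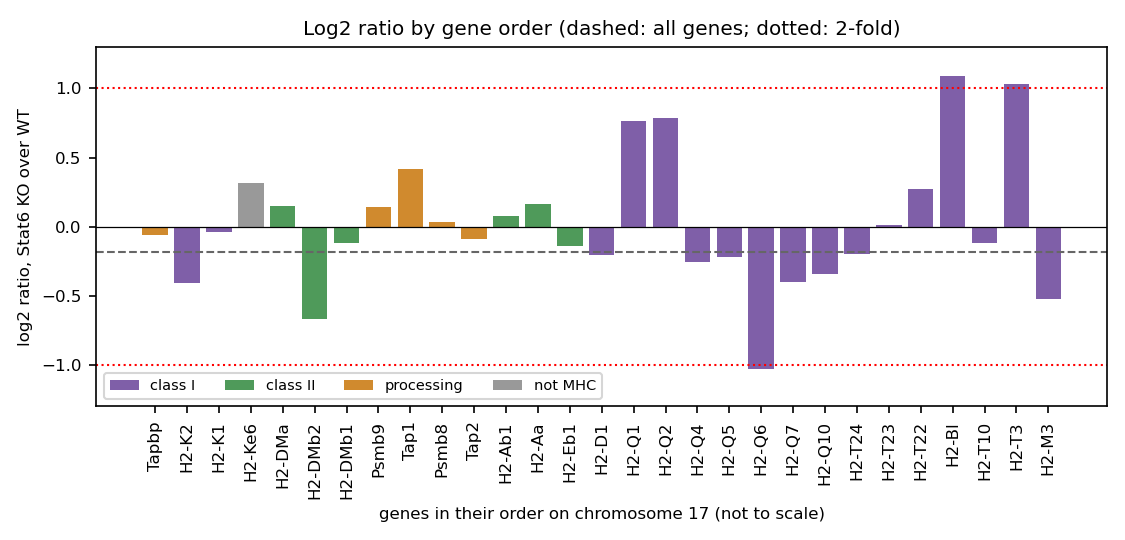
Log2 ratio (y axis, Stat6 KO over WT) of the measured members on chromosome 17, in the order of their RefSeq starts and not to scale, without H2-Q8 and H2-Q9, whose place was not used. The neighbours H2-Q1 and H2-Q2 stand at 0.77 and 0.78, while H2-Q4 to H2-Q10 beside them all lie below 0. The median of all genes (dashed) is -0.18, near H2-Q4 at -0.26 and H2-Q5 at -0.22.

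Copies can blur such values, because a 50-base read that fits several genes cannot be placed by its sequence alone. In GENCODE M21 transcripts, 34.97% of the 50-base windows of H2-Q6, 34.93% of those of H2-Q7 and 42.6% of those of H2-Q5 also occur in another gene. For H2-Q1 the share was 22.3%, for H2-Q2 16.1%, and most of that was between these 2 genes (13.5% of H2-Q1 and 12.9% of H2-Q2). H2-T3 shared only 1.08% and H2-Bl 8.76%. H2-K1 and H2-D1 shared 12.1% and 13.9%. H2-Q4 (39.2%), H2-T22 (42.8%), H2-T10 (40.7%) and H2-T23 (29.8%) had shares like those of H2-Q5 to H2-Q7, and the single values of these 7 genes are uncertain. H2-Q8 and H2-Q9 had no transcript in the set used, so windows that H2-Q6 or H2-Q7 share only with them were not counted. The single values of H2-Q8 and H2-Q9 are uncertain as well. The placement of reads behind the deposited values was not tested. The class medians of this share were 12.4% for class I, 0% for class II and 7.54% for processing.

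The remaining H2-T genes differed less. H2-T23, whose product Qa-1 presents leader peptides to the inhibitory CD94/NKG2A receptor, was at 122.5 FPKM in KO and 121.5 FPKM in WT (log2 ratio 0.011). H2-T22, a ligand of some gamma-delta T cell receptors, was at 55.9 FPKM in KO and 46.1 FPKM in WT (0.27). Its close copy H2-T10 was at 3.23 FPKM in KO and 3.6 FPKM in WT, and H2-T24 at 1.97 FPKM in KO and 2.41 FPKM in WT. H2-M3, which presents formylated bacterial peptides, was at 2.69 FPKM in KO and 4.31 FPKM in WT (-0.53). H2-K2, a transcribed pseudogene in RefSeq, was at 2.73 FPKM in KO and 3.94 FPKM in WT (-0.41). Nlrc5, the class I coactivator, was at 3.55 FPKM in KO and 5.76 FPKM in WT (log2 ratio -0.57, below 2-fold), beside -0.040 for H2-K1 and -0.14 for B2m.

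The upstream bases of H2-K1, H2-Q2 and H2-T3 are shown because their log2 ratios (-0.040, 0.78 and 1.03) and their motifs differ. Each runs through the 250 bases before the annotated start. Capitals mark the kB-type site, the X2 core of a pair and Y box cores on either strand.

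H2-K1 (chr17:34000348-34000597, minus strand): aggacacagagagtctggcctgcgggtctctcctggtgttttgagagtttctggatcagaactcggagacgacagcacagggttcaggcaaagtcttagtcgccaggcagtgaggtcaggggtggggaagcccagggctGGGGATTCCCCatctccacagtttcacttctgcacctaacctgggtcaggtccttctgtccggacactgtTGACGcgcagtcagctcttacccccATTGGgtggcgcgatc
H2-Q2 (chr17:35342057-35342306, plus strand): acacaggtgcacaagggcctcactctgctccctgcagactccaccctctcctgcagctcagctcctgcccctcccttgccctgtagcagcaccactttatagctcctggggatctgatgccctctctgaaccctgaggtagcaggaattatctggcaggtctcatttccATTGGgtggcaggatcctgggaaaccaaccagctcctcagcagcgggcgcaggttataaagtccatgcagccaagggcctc
H2-T3 (chr17:36190152-36190401, minus strand): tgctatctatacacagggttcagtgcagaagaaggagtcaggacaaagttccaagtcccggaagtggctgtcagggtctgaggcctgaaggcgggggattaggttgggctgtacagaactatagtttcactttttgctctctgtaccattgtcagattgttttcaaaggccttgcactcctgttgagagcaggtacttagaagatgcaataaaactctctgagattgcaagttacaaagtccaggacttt

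The H2-K1 stretch holds a kB-type site and the X2-Y pair. The H2-Q2 stretch holds a Y box with no kB-type site and no pair, and the H2-T3 stretch holds none of these. The window of H2-Q10, at a log2 ratio of -0.34, holds none of them either. That of H2-T23, at 0.011, holds a Y box with no kB-type site and no pair. A link between motifs and log2 ratios was not tested.

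Class II genes were expressed at levels of the same order as many class I genes, and differed little. The alpha chain gene H2-Aa (Entrez gene 14960) was at 173 FPKM in KO and 155 FPKM in WT (log2 ratio 0.16). Its partner, the beta chain gene H2-Ab1 (Entrez gene 14961), was at 199 FPKM in KO and 188.5 FPKM in WT (0.080). The alpha to beta ratio was 0.868 in KO and 0.821 in WT. H2-Eb1, the beta chain of the E molecule, was at 67.2 FPKM in KO and 74.2 FPKM in WT (-0.14 as deposited and 0.060 with the TMM factor). These 3 chains summed to 439.6 FPKM in KO and 417 FPKM in WT.

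Cd74, the invariant chain, was at 442 FPKM in KO and 480.3 FPKM in WT, with a log2 ratio of -0.12. It was at 2.55 times the H2-Aa level in KO and 3.11 times in WT. The peptide exchanger subunit genes H2-DMa and H2-DMb1 were at 14.8 and 33.2 FPKM in KO and at 13.3 and 36.1 FPKM in WT. H2-DMb2 was at 0.38 FPKM in KO and 1.19 FPKM in WT, about 11 and 34.3 reads. Its log2 ratio was -0.67, and -1.43 with a pseudocount of 0.1 FPKM, and 25.9% of its windows occur in other genes, mostly H2-DMb1. Ciita, the class II coactivator, was at 5.11 FPKM in KO and 3.85 FPKM in WT (log2 ratio 0.33), the highest of the class. Its log2 ratio and that of Nlrc5 lay on opposite sides of the median of all genes, by 0.51 and -0.39.

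**Figure D4:**
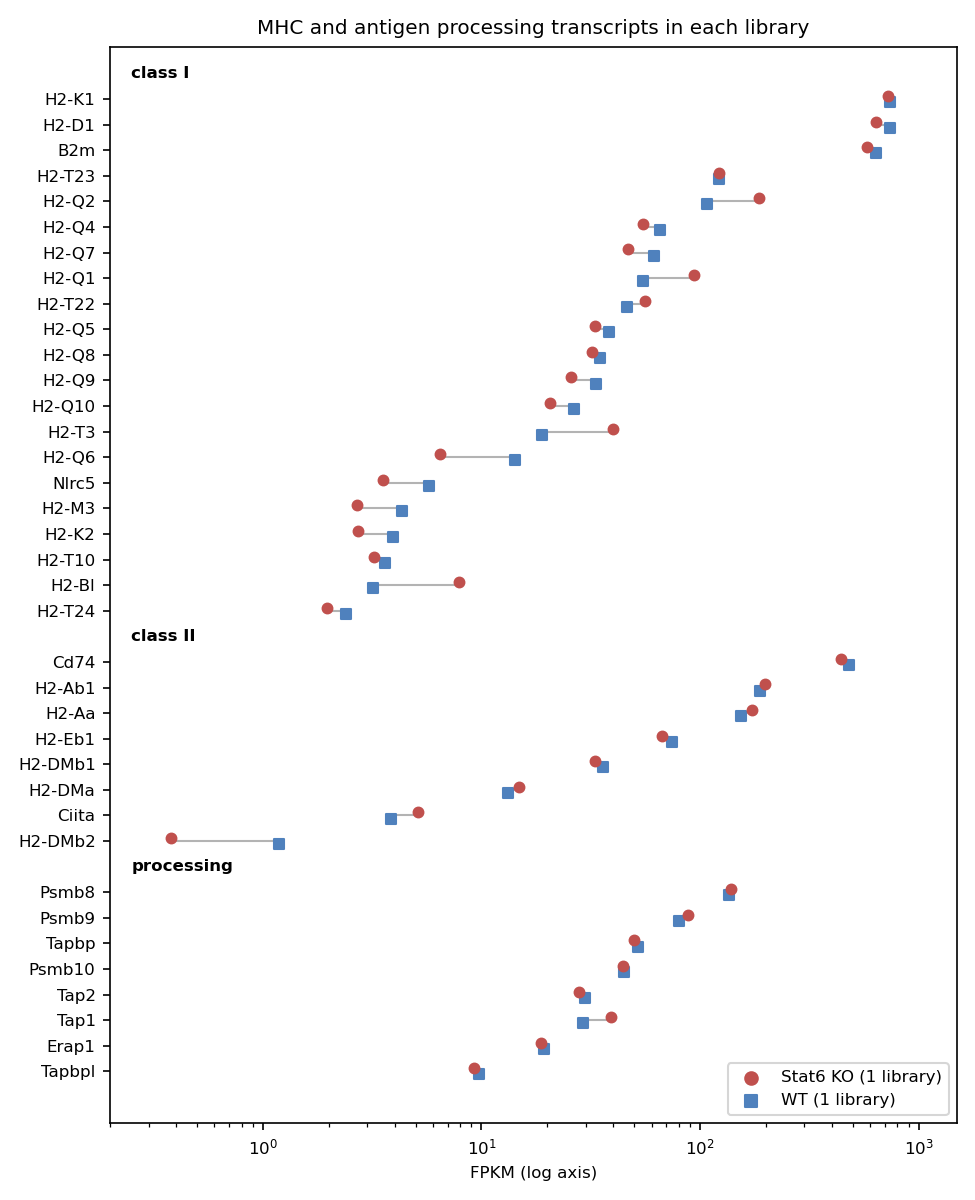
FPKM (log axis) of each measured member in the Stat6 KO library (red circles) and the WT library (blue squares), grouped by class and ordered by the WT level. H2-K1, H2-D1, B2m and Cd74 lie at 442 FPKM or more in both libraries, and the widest gaps are those of H2-DMb2, H2-Bl, H2-Q6 and H2-T3.

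The processing genes had 7 of 8 log2 ratios between -0.092 and 0.14. Tap1, one chain of the peptide transporter, was the exception at 39.1 FPKM in KO and 29.1 FPKM in WT (0.42, 1.35-fold). Tap2, the other chain, was at 27.9 FPKM in KO and 29.7 FPKM in WT (-0.092), so that the Tap1 to Tap2 ratio was 1.41 in KO and 0.978 in WT. Tapasin (Tapbp), which bridges the transporter and class I, was at 50.0 FPKM in KO and 52.1 FPKM in WT. Its relative Tapbpl, a peptide editor, was at 9.24 FPKM in KO and 9.74 FPKM in WT. Erap1, which trims peptide ends, was at 18.6 FPKM in KO and 19.3 FPKM in WT.

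Psmb8, Psmb9 and Psmb10 encode the catalytic subunits of the immunoproteasome, which replace Psmb5, Psmb6 and Psmb7 in cells exposed to interferon. Psmb8 was at 139 FPKM in KO and 135.5 FPKM in WT. Psmb9 was at 88.5 FPKM in KO and 79.9 FPKM in WT, and Psmb10 at 44.3 FPKM in KO and 45.01 FPKM in WT. The constitutive counterparts were at lower FPKM in KO as deposited, by less than 2-fold. Psmb5 was at 153 FPKM in KO and 210.1 FPKM in WT, a log2 ratio of -0.46. Psmb6 (-0.20) and Psmb7 (-0.25) lay near the median of all genes (-0.18). Psmb8, Psmb9 and Psmb10 lay 0.22, 0.33 and 0.16 above that median. The Psmb8 to Psmb5 ratio was 0.909 in KO and 0.645 in WT, and the Psmb9 to Psmb6 ratio 0.860 in KO and 0.675 in WT. Psmb10 to Psmb7 was 0.238 in KO and 0.203 in WT. These ratios describe 1 library each and do not depend on library scaling.

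**Figure D5:**
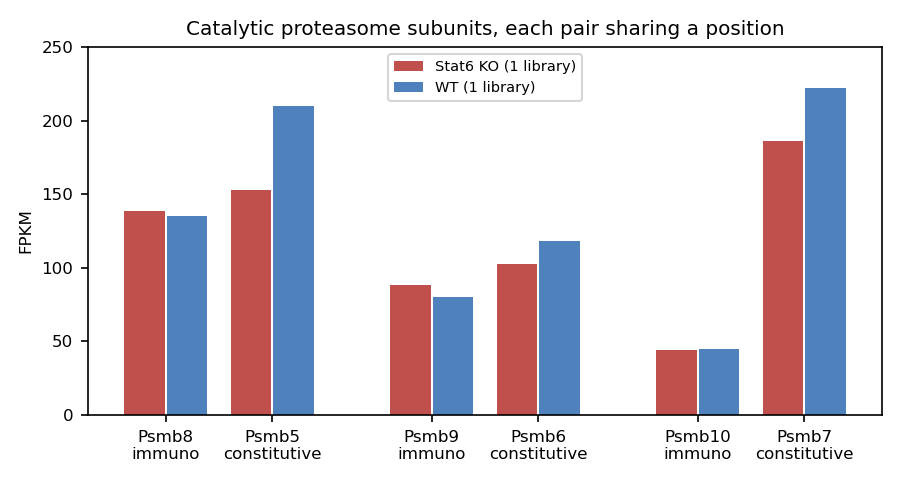
FPKM (y axis) of the 3 immunoproteasome subunits beside the constitutive subunit each replaces, in the Stat6 KO library (red, left bar) and the WT library (blue, right bar). The immunoproteasome bars are close between libraries, while Psmb5, Psmb6 and Psmb7 are lower in KO as deposited, with Psmb5 at 153 FPKM against 210.1 FPKM. The log2 ratios of Psmb6 (-0.20) and Psmb7 (-0.25) are near the median of all genes (-0.18).

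Tap1 and Psmb9 are divergent neighbours, and the bases between their annotated starts are shown because a pair of processing genes shares them. The 225 bases (chr17:34187331-34187555, plus strand, reading towards Tap1) hold 1 Y box core on the opposite strand, in capitals.

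Tap1 and Psmb9: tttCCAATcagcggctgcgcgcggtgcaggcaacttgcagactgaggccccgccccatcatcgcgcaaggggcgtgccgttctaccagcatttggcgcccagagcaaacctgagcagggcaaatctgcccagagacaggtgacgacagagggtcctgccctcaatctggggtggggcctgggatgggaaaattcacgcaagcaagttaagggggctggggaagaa

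The log2 ratio was 0.42 for Tap1 and 0.14 for Psmb9. Both lay above the median of all genes, by 0.60 and 0.33.

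Partners of the pathway were read from lists of genes outside the 47. The endoplasmic reticulum chaperones of class I loading were higher in KO by less than 2-fold. Calreticulin (Calr) was at 467 FPKM in KO and 324 FPKM in WT (log2 ratio 0.53), the disulfide isomerase Pdia3 at 200.01 FPKM in KO and 142 FPKM in WT (0.49), and calnexin (Canx) at 111 FPKM in KO and 83.8 FPKM in WT (0.40). These proteins fold many other glycoproteins too. With the peptidases Lnpep (-0.18) and Nrd1 (-0.26), 0 of 5 passed 2-fold, and the list median was 0.40, or 0.58 above that of all genes. The proteasome activator and constitutive subunit genes had 0 of 6 past 2-fold and a median of -0.23, from Psmb5 at -0.46 to the activator subunit Psme2 at 0.071.

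Of the endosomal enzymes that prepare class II ligands, 0 of 6 passed 2-fold, with a median of -0.11. Ctss, the protease that trims the invariant chain in B cells and dendritic cells, was at 15.03 FPKM in KO and 12.1 FPKM in WT (0.29). Ctsl, which does so in thymic epithelium, was at 39.9 FPKM in KO and 68.6 FPKM in WT (-0.77), the lowest log2 ratio of the list. Among the proteins of the X and Y boxes, 0 of 7 passed 2-fold, with a median of -0.17, from Nfya at -0.44 to Nfyc at 0.079. March8, a ubiquitin ligase that lowers surface class II, was at 19.2 FPKM in KO and 16.3 FPKM in WT (0.22), and March1 was below 1 FPKM in both libraries.

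Genes that carry or restrain the interferon signal had 0 of 14 past 2-fold. Their median was 0.14, which is 0.32 above all genes, with 12 of 14 above the median of all genes. Tyk2, a kinase of the type I interferon receptor, had the lowest log2 ratio (-0.37), at 9.98 FPKM in KO and 13.2 FPKM in WT. Ifngr1, a chain of the interferon gamma receptor, was at 146 FPKM in KO and 120.4 FPKM in WT (0.27).

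Genes that accompany antigen presentation in professional cells were scarce. Cd80 and Cd86, the main costimulators of T cells, were at 0.06 and 0.12 FPKM in KO and at 0.30 and 0.24 FPKM in WT. Cd40 was at 1.3 FPKM in KO and 2.80 FPKM in WT (-0.72). Icosl had the highest log2 ratio of the list (0.25), at 3.79 FPKM in KO and 3.04 FPKM in WT. Cd276 had the highest level, at 6.33 FPKM in KO and 9.19 FPKM in WT (-0.48). Of 4 measured costimulators and checkpoint ligands 0 passed 2-fold, with a median of -0.49. Of the MHC-like genes outside the H2 symbols 1 of 3 measured passed 2-fold. This was Procr, the endothelial protein C receptor, at 2.72 FPKM in KO and 11.1 FPKM in WT (-1.70), while Fcgrt, the neonatal Fc receptor, was at 17.8 FPKM in KO and 17.04 FPKM in WT (0.056), the highest. The 4 endothelial markers summed to 4.45 FPKM in KO and 11.5 FPKM in WT, and their part in the Procr value was not tested. The NKG2D ligands Raet1e and Raet1a were at 1.94 and 0.73 FPKM in KO and at 3.48 and 1.46 FPKM in WT (-0.61 and -0.51).

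Markers of cells that carry class II elsewhere were low in both cultures. The 11 dendritic cell and macrophage markers summed to 18.1 FPKM in KO and 39.8 FPKM in WT, with none at 0. Most of that was Cd68 and Lyz2, at 6.08 and 6.32 FPKM in KO and at 17.7 and 12.6 FPKM in WT. Only Itgam, at 1.72 FPKM in KO and 1.26 FPKM in WT, and Xcr1, at 0.12 and 0.10 FPKM, were higher in KO. Ptprc, which all white blood cells express, was at 0.57 FPKM in KO and 1.43 FPKM in WT, and Flt3, Itgax, Xcr1 and Zbtb46 were below 0.5 FPKM in each library. The 5 B cell markers summed to 1.52 FPKM in KO, where Pax5 was at 0, and to 2.81 FPKM in WT, and the 4 T cell markers to 0.99 FPKM in KO and 1.76 FPKM in WT. The 4 fibroblast markers summed to 1.76 FPKM in KO and 3.97 FPKM in WT. H2-Ab1 was at 349.6 times the Ptprc level in KO and 132 times in WT. These marker sums were lower in KO. Of the class II genes, H2-Aa, H2-Ab1, H2-DMa and Ciita were at higher FPKM in KO, and Cd74, H2-Eb1, H2-DMb1 and H2-DMb2 at lower FPKM. With 1 FPKM added, these 8 genes were within 2-fold. Without it H2-DMb2, at 0.38 FPKM in KO and 1.19 FPKM in WT, was at 0.319 of the WT level. How far cells that carry class II elsewhere add to the class II values was not tested. In bulk RNA, fewer cells of a type and less RNA per cell cannot be told apart. The enterocyte markers were higher in the same library as H2-T3, H2-Q1 and H2-Q2, and the part of that difference in these 3 values was not tested either.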

How the data were processed

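Total RNA was sequenced as single-end reads of 50 bases on a BGISEQ-500 instrument, per the labels' protocols. The authors deposited FPKM per gene, per the file headers, with 2 decimals. HISAT, Bowtie2, RSEM and mm9 are named in the submitters' processing notes, without versions or roles. FPKM divides by a library total, so abundant genes that differ move all other values. How reads of close copies were divided is not given in the labels.

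Both tables were joined on the Entrez gene number (Python 3.11.15, pandas 2.3.3). March1 and March8, whose symbols had become dates, were found by that number. With 1 library per genotype no test was run. The depth was the one, from a range below the mean the labels state, that brought values of up to 5 reads closest to whole numbers in short RNA genes. Read numbers use it with the longest GENCODE M21 transcript and are approximate. The calculations were run on simulated reads with no variation between cultures and no reads shared by copies. That checks the calculation only, not any difference reported here. Every measured member was named, and of each partner list the genes past 2-fold with the highest and lowest log2 ratios. Members, lists and tests were chosen with earlier results of these data known. RefSeq promoter windows and GENCODE transcripts are of a later build than mm9, and no position from them was tied to a deposited value. The X1 box and protein identity, planned as descriptions, were not used here. One gene of the interferon list, named by the rule, and one motif are not reported here. Alternatives were other pseudocounts, scalings, minimum levels and thresholds. For the class medians they included the mean over members and, for class I, leaving out the H2-Q, H2-T, H2-K and H2-D genes.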

Additional observations from a re-analysis of the deposited data

How the results depend on the processing

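No paired analysis was possible because each genotype has 1 library. H2-Bl and H2-T3 were the class I genes past 2-fold on the higher side as deposited, with a pseudocount of 0.1 FPKM, with the TMM factor and with the median of all genes set to 0. With a pseudocount of 5 FPKM the class I counts were 0 higher and 0 lower. At 1.5-fold 4 class I genes were higher and 1 lower, and at 4-fold 0 were higher and 0 lower. The 1 lower class I gene, H2-Q6, was lost (0 lower) with the TMM factor and with the median of all genes set to 0, where its log2 ratio was -0.85 in both. For class II, 1 gene, H2-DMb2, was lower with a pseudocount of 0.1 FPKM and at 1.5-fold. No processing gene passed 2-fold under any alternative tried. On the deposited scale none passed 1.5-fold or 4-fold, while Tap1 reached 0.61 with the TMM factor and 0.60 with the median set to 0, which is past 1.5-fold.

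Over the alternatives the class I median was below 0 each time. Its lowest value, -0.33, came from leaving out the H2-Q, H2-T, H2-K and H2-D genes, so few genes remained. With all measured class I genes the lowest was -0.20, with a pseudocount of 0.1 FPKM. The highest was -0.0013 with the TMM factor, where the median of all genes was -0.0034. The class II median ran from -0.040 to 0.18 and changed sign in 4 of 8 alternatives, and the processing median ran from -0.037 to 0.16 and changed sign in 3 of 8. The sign of these medians is therefore not fixed by the data. For all genes, the counts were 144 higher and 63 lower with a pseudocount of 5 FPKM, and 604 lower with 0.1 FPKM. At 1.5-fold 689 genes were higher (5.7%) and 1381 lower (11.4%), and at 4-fold 51 were higher (0.422%) and 27 lower (0.224%). Lower counts were 160 with the median set to 0, 150 with a minimum of 5 FPKM and 165 with 1 FPKM in both libraries. The causes were not tested. Values near 1 FPKM, such as H2-DMb2, are limited by depth.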
